A study of Mus musculus with 32 samples.

Results

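The immunity-related GTPases (IRG proteins) are interferon-inducible GTPases of the mouse, and 7 of their genes were followed here across 2 progenitor cell lines and 4 treatments: Irgm1, Irgm2, Igtp (also called Irgm3), Iigp1 (Irga6), Tgtp1 and Tgtp2 (both Irgb6) and Ifi47 (Irgd). The genes were taken by name, as the rows whose identifier carries one of these symbols in the mouse GENCODE annotation, and the rule used no measured value. All 7 were found among 55487 genes listed, and all 7 were among the 14869 genes with enough counts to be tested. Iigp1, Tgtp1 and Tgtp2 passed the filter on low counts through the groups that received interferon gamma, since they held almost no counts elsewhere.

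The cells were hematopoietic progenitors from mouse fetal liver, immortalised with ER-HOXB8, a HOXB8 homeobox protein whose activity depends on estrogen. The line hi-77+/+, called wild-type below, kept the enhancer that lies upstream of Gata2 and is named -77. The line hi-77-/- (genotype Gata2 -77-/-), called mutant below, lacked it. Both lines carried ER-HOXB8 and grew in the same medium with b-estradiol and stem cell factor. Each was given vehicle, interferon gamma (IFNg) at 1 ng/ml, the synthetic lipopeptide Pam3CSK4, a TLR2 ligand, at 100 ng/ml, or both agents, for 4 h. Every one of the 8 groups had 4 RNA-seq libraries. Each genotype was 1 immortalised line, and nothing in the labels says that the replicate libraries were grown apart, so p-values reflect the spread among these libraries, which may be technical. The age of the embryos is not given in the sources used here.

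IRG proteins are made after interferon binds its receptor, through transcription factors that include IRF1, and they act inside the cell against microbes that live in vacuoles, such as Toxoplasma and Chlamydia. The family falls into 2 classes by the nucleotide-binding loop (P-loop) of the GTPase domain. The effector class, named GKS, holds Iigp1, Tgtp1, Tgtp2 and Ifi47; these proteins load onto the membrane of the vacuole and disrupt it. The regulator class, named GMS, holds Irgm1, Irgm2 and Igtp; it has methionine in place of the lysine, sits on the cell's own membranes and keeps the effectors inactive there. Mice without Irgm1 are known for defects of blood stem cells that depend on interferon signalling.

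Sums of expected counts per library lay between 44.18 and 71.42 M, and 17416 to 20978 genes had a count. Gata2, whose enhancer was deleted, lay between 35.1 and 54.7 CPM (counts scaled to the same total in each library) in wild-type libraries and between 6.01 and 8.42 CPM in mutant libraries. Structural RNA (mitochondrial, microRNA and small non-coding RNA genes) took 24 ± 4.17% of the counts in wild-type vehicle cells, against 15.9 ± 1.87% (IFNg), 14.8 ± 1.47% (Pam3CSK4) and 13.6 ± 0.612% (both agents) in treated wild-type cells (mean ± SD, n = 4), and group means of 21.1 to 27.3% in mutant cells. The 6 progenitor markers (Kit, Cd34, Myb, Ptprc, Flt3 and Spi1) were all detected, with summed levels of 2570 to 2750 CPM in wild-type and 3080 to 3470 CPM in mutant libraries. The hepatocyte list summed to 0.199 to 0.779 CPM. The macrophage list summed to 20.4 to 25.5 CPM in wild-type and 10.3 to 19.8 CPM in mutant libraries, with 3 to 5 of its 9 genes holding any count in a group. Of the 3 macrophage genes tested, 2 were higher and 1 lower in mutant cells with each treatment, so the sum does not give their common direction. B lymphoid markers summed to 37.5 to 49 CPM in wild-type and 213 to 314 CPM in mutant libraries, mast cell markers to 520 to 617 CPM and 92.8 to 119 CPM, and T and NK cell markers to 4.37 to 8.96 CPM over all libraries. Their part in the IRG levels was not tested, and in bulk RNA a change in the number of cells of a type cannot be told apart from a change in RNA per cell. The 21 interferon genes listed held 17 to 64 counts per group in all, and none of them passed the filter.

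The sequences of the P-loop are shown first because the codon in capitals separates the regulators from the effectors. The 24 bases were read from the coding strand of the mm10 genome at the single match of each protein to the P-loop pattern.
Irgm1 (chr11:48866761-48866784, minus strand): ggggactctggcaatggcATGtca
Irgm2 (chr11:58219695-58219718, plus strand): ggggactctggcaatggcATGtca
Igtp (chr11:58206275-58206298, plus strand): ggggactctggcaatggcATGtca
Tgtp1 (chr11:48987667-48987690, minus strand): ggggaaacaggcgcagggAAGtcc
Tgtp2 (chr11:49059534-49059557, minus strand): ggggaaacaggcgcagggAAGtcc
Ifi47 (chr11:49095648-49095671, plus strand): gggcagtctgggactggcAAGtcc
The codon in capitals is ATG, methionine, in the 3 GMS genes and AAG, lysine, in Tgtp1, Tgtp2 and Ifi47; the same position is lysine in Iigp1. The 3 GMS genes were identical over these 24 bases. Over whole coding sequences the GMS genes were 64.1 to 67.8% identical to each other, and 50.5 to 54.3% identical to GKS genes.

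The members lay in 3 places of the mm10 genome. Irgm1 (chr11:48861968-48871683, minus strand), Tgtp1 (chr11:48985327-48994172, minus strand), Tgtp2 (chr11:49057194-49064206, minus strand) and Ifi47 (chr11:49076587-49096974, plus strand) lay within 235 kb of chromosome 11. Igtp (chr11:58199556-58207591) and Irgm2 (chr11:58199618-58222782) lay on the plus strand of the same chromosome within 23.2 kb, and overlapped each other. Iigp1 (chr18:60376027-60392634, plus strand) was the only member on another chromosome. Irgm2 shared 162 of its 3690 exon bases with Igtp (4.39%). Tgtp1 shared 223 exon bases (6.96% of its 3205) with the IRG gene model Gm12185 on the same strand. The olfactory receptor gene Olfr56, on the plus strand, is annotated across Tgtp1, Tgtp2 and Ifi47. Whether strand was used in counting is not given in the sources used here.

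Tgtp1 and Tgtp2 are near-identical copies. Their coding sequences differed at 4 bases and were 99.7% identical. Of all stretches of 50 bases in annotated Tgtp1 transcripts, 79.4% occurred unchanged in Tgtp2 transcripts, and 85.8% of those of Tgtp2 occurred in Tgtp1. RSEM divides such reads between the copies by a model, so the split is uncertain and values of the sum of both genes are given too. Igtp and Irgm2 shared 11.8% and 6.79% of their stretches with each other, and Irgm1 shared none with Igtp.

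Promoter windows from RefSeq (GRCm38.p6, 250 bases before to 50 after each transcription start) were found for 6 of the 7 members; none is shown for Iigp1. Motifs known from interferon-responsive genes were looked for on both strands: the core of the interferon-stimulated response element (ISRE, bound by IRF factors), a GAAA and a further GAAA after any 2 bases (on the other strand TTTC, any 2 bases and TTTC), and the core of the gamma-activated site (GAS, known from genes that IFNg induces), spelled TTCNNNGAA. The 60 bases around the matches are shown in the direction of the gene, with every match in capitals.
Irgm1 (chr11:48871420-48871479, minus strand): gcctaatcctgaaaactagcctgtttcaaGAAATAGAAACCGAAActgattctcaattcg
Irgm2 (chr11:58214878-58214937, plus strand): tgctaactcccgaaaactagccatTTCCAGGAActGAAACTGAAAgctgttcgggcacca
Igtp (chr11:58199487-58199546, plus strand): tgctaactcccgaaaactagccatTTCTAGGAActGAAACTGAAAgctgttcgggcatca
Tgtp1 (chr11:48992299-48992358, minus strand): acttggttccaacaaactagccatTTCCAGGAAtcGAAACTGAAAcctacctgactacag
Tgtp2 (chr11:49064258-49064317, minus strand): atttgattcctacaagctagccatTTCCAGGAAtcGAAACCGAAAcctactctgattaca
In Irgm2, Igtp, Tgtp1 and Tgtp2 a GAS core stood 2 bases before an ISRE core. The promoter windows of Igtp and Irgm2 were 72.8% identical and those of Tgtp1 and Tgtp2 66.8%, against 39.3 to 50.3% for the other pairs. These matches are therefore not separate occurrences. The GAS cores began at -75, -45, -88 and -81 bases from the transcription start, and the ISRE cores at -64, -34, -77 and -70. Irgm1 held no GAS core and held a pair of overlapping ISRE cores, at -30 and -24. Ifi47 had neither motif in its window, which says only that these letters are not there. Among 32851 RefSeq promoters of the same length, 3.44% held the ISRE core, 8.3% the GAS core and 0.454% both, and in 9 promoters (0.0274%) a GAS core came before an ISRE core, on either strand, with at most 3 bases between; Gm12185 was among them. A stricter ISRE core, with a C after the later GAAA, was found in 3 of the 6 member promoters (Irgm1, Tgtp1 and Tgtp2) and in 0.819% of all. A GAS core with 4 bases in its middle, in place of 3, was found in 0 of the 6 member promoters and in 6.95% of all. These matches are descriptions of sequence and not of binding.

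**Figure D1:**
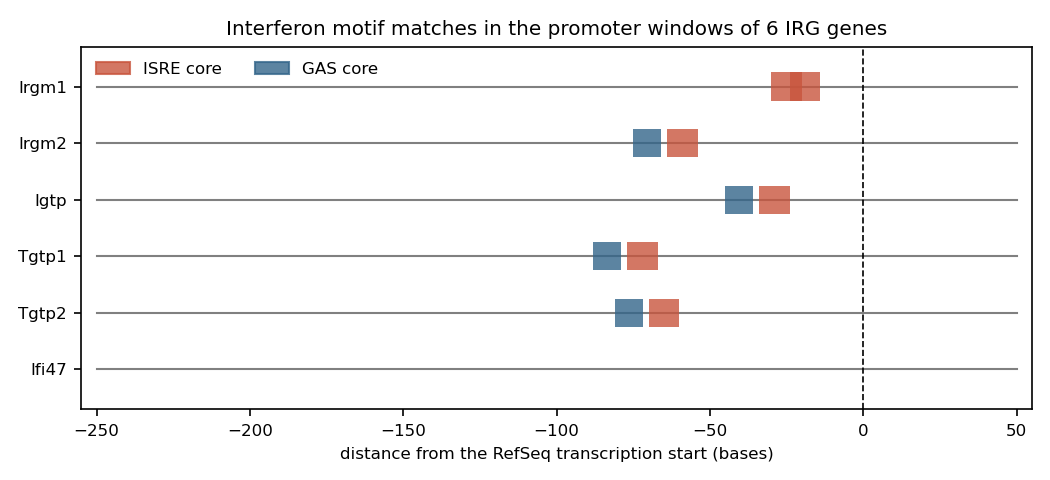
Positions of the ISRE core (red) and the GAS core (blue) in the RefSeq promoter windows of 6 IRG genes, on an axis of distance from the transcription start in bases (dashed line at 0). In Irgm2, Igtp, Tgtp1 and Tgtp2 a GAS core stands 2 bases before an ISRE core, Irgm1 has overlapping ISRE cores only, and Ifi47 has no match.

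Without any agonist the mutant line already held more mRNA of the regulators and of Ifi47 than the wild-type line. Of the 7 members, 5 were higher in mutant cells, Irgm1, Irgm2, Igtp, Tgtp2 and Ifi47, none was lower, and Iigp1 and Tgtp1 did not pass (edgeR quasi-likelihood test, Benjamini-Hochberg adjusted p under 0.05). Of all genes tested, 53.7% were called in this comparison, 24.4% higher, so a call alone was common. The median log2 fold change of the 4 members with a fitted ratio was 1.01, against -0.0145 over all genes.

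Irgm1, the best-known regulator, stood at 11.8, 12.5, 11.6 and 11.4 CPM in the 4 wild-type vehicle libraries and at 23.2, 24.4, 22.7 and 22.7 CPM in the 4 mutant ones. The lines did not overlap, and the log2 fold change was 0.97 ± 0.04 (SE; edgeR adjusted p = 5.1e-20). Irgm2 read 1.89, 1.55, 2.26 and 1.597 CPM in wild-type and 4.12, 4.02, 3.74 and 3.42 CPM in mutant libraries, a log2 difference of 1.05 ± 0.08 (edgeR adjusted p = 3.4e-13). Igtp read 3.64, 3.32, 3.36 and 3.12 CPM against 5.65, 5.94, 5.61 and 4.91 CPM, a log2 difference of 0.71 ± 0.07 (edgeR adjusted p = 4.8e-11). All mutant libraries lay above all wild-type libraries for these 3 regulators. How many of all genes tested separate the lines in this way was not counted.

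Ifi47, the effector with a measurable level without interferon, differed more in this comparison than the regulators did in value. It read 1.16, 1.58, 1.54 and 1.29 CPM in wild-type libraries and 7.68, 7.497, 8.55 and 7.96 CPM in mutant libraries. The log2 fold change was 2.49 ± 0.10 (edgeR adjusted p = 8.6e-20), with no overlap between the lines.

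The other effectors were near or at 0 with vehicle. Tgtp1 and Tgtp2 had no count in any wild-type vehicle library, which for each gene allows up to 3 counts over the group. Mutant vehicle libraries held 6, 8, 6 and 7 counts of the Tgtp pair together. Against a floor of 3 wild-type counts, the summed level was 8.36-fold higher in mutant cells (edgeR adjusted p = 1.1e-06). By the same floor Tgtp2 alone was 6.19-fold higher (edgeR adjusted p = 1.1e-04), and Tgtp1 2.17-fold (edgeR adjusted p = 0.0632, not called). Iigp1 had 1 count over the wild-type group and 2 over the mutant group, too few for a fold. Floors and intervals here cover counting error only. The floors take the few mutant counts as exact, so they are not firm lower bounds here.

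IFNg raised all 7 members in both lines, with no overlap between IFNg and vehicle libraries for any of them. How many of all genes tested lack such overlap was not counted. Iigp1, Tgtp1 and Tgtp2 passed the low-count filter through the groups with IFNg, so their rise and non-overlap support nothing by their count. Of all genes tested, 35.4% were called for IFNg against vehicle in wild-type cells (17.8% higher) and 33.2% in mutant cells (18.3% higher). In wild-type cells structural RNA took a smaller share of the counts with IFNg than with vehicle, as given above; with that share as a term in the fit, all 7 members were still called.

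Irgm1 reached 480.2, 477, 494 and 479 CPM in the 4 wild-type libraries with IFNg and 717, 721, 747 and 756 CPM in the mutant ones. Its rise over vehicle was 5.35 ± 0.05 on the log2 scale in wild-type (edgeR adjusted p = 1.4e-40) and 4.98 ± 0.05 in mutant cells (edgeR adjusted p = 3.2e-40). Wild-type replicate 3 stood apart from the other libraries of its group, though by a small amount. Irgm2 reached 149.7, 152, 148 and 154 CPM in wild-type and 216, 225, 216 and 237 CPM in mutant libraries, rises of 6.35 ± 0.07 and 5.87 ± 0.07 (edgeR adjusted p = 4.5e-38 and 3.3e-38). Igtp reached 366, 350.3, 350.4 and 369 CPM and 572, 582, 588 and 612 CPM, rises of 6.73 ± 0.07 and 6.74 ± 0.06 (edgeR adjusted p = 6.0e-40 and 3.2e-40). The regulators thus started from a level that could be counted and rose in both lines, Igtp by the closest values.

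Ifi47 rose to 47.5, 40.8, 42.7 and 46.2 CPM in wild-type and 137, 138, 139.6 and 144 CPM in mutant libraries. On the log2 scale its rise was 4.97 ± 0.09 in wild-type (edgeR adjusted p = 1.2e-28) and 4.14 ± 0.08 in mutant cells (edgeR adjusted p = 5.5e-29), in each line the smallest of the rises that could be fitted. Iigp1, an effector that loads early onto the vacuole of Toxoplasma, rose to 87.99, 68.6, 69.1 and 79.3 CPM in wild-type and 447, 395, 398 and 419 CPM in mutant libraries. With 2 counts in the mutant vehicle group, its ratio there was 47850 with a 95% counting interval of 13250 to 395100, so the size of the rise is known only within a wide range.

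Tgtp1 rose to 94.2, 79.1, 78.8 and 90.6 CPM in wild-type and 360.5, 323, 331 and 356 CPM in mutant libraries. Tgtp2 rose to 193, 173, 176 and 183 CPM and 633, 607, 592 and 629 CPM. Counted as 1 gene, the pair reached 267 ± 16.4 CPM in wild-type (mean ± SD, n = 4), at least 19010-fold above vehicle, and 958 ± 36.3 CPM in mutant cells, 12.97 ± 0.11 above vehicle on the log2 scale (edgeR adjusted p = 4.7e-35). In mutant libraries the pair went from 6 to 8 counts each with vehicle to 44280 or more with IFNg. The SE of 0.11 is smaller than the counting error of so few vehicle counts, so it overstates how well this rise is known. With a library left out, the log2 rise in mutant cells was 12.96 to 14.57 for Tgtp1 and 12.46 to 13.16 for Tgtp2.

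**Figure D2:**
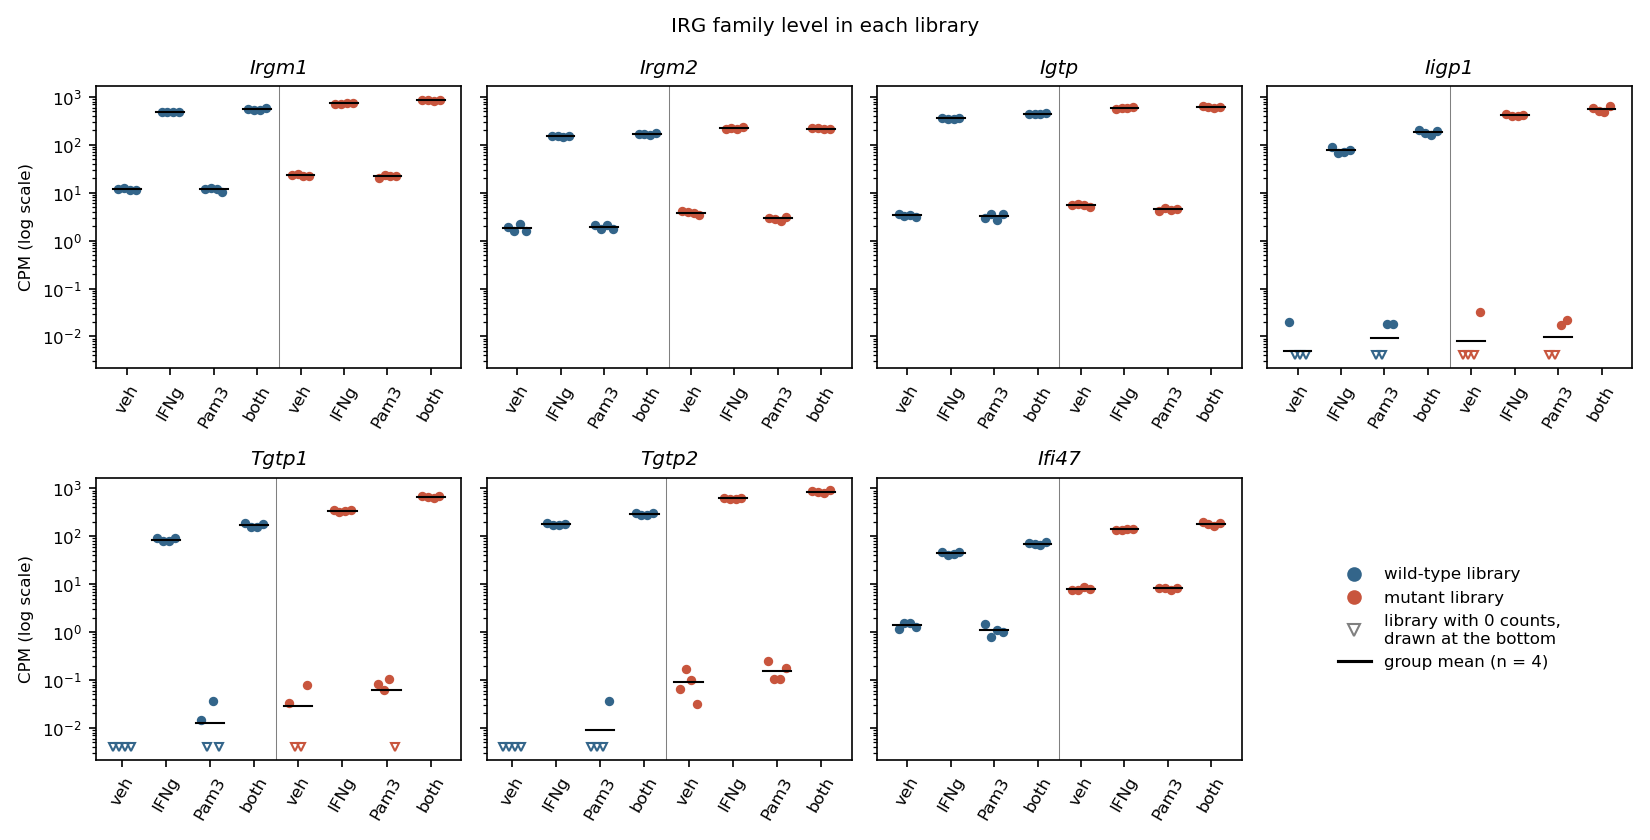
CPM (log axis) of the 7 IRG genes in each of the 32 libraries, wild-type in blue and mutant in red, ordered as vehicle, IFNg, Pam3CSK4 and both agents; black lines are group means and open triangles are libraries with 0 counts. In the IFNg groups Irgm1 lies at 477 to 494 CPM in wild-type and 717 to 756 CPM in mutant libraries, and Iigp1 at 68.6 to 87.99 and 395 to 447 CPM.

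With IFNg present, all 7 members were higher in mutant than in wild-type cells, and by more for the effectors than for the regulators. Of all genes tested, 53.1% were called in this comparison, 25.7% higher. The members' median log2 fold change was 1.66, against 0.000343 over all genes. Among the regulators the log2 fold changes were 0.61 ± 0.04 for Irgm1, 0.57 ± 0.05 for Irgm2 and 0.71 ± 0.05 for Igtp (edgeR adjusted p = 9.8e-16, 3.3e-12 and 2.8e-15). Among the effectors they were 2.44 ± 0.09 for Iigp1, 2.00 ± 0.09 for Tgtp1, 1.76 ± 0.07 for Tgtp2 and 1.66 ± 0.07 for Ifi47 (edgeR adjusted p = 1.1e-18, 4.3e-16, 1.1e-18 and 2.8e-20). The highest regulator value lay below the lowest effector value; a difference between the classes was not tested. For the Tgtp sum the log2 fold change was 1.84 ± 0.06 (edgeR adjusted p = 1.8e-21), so the higher mutant level does not rest on how reads were split between the copies.

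The response itself could be compared between lines for members with counts in both vehicle groups. Tgtp1 and Tgtp2, with 0 vehicle counts in wild-type cells, were left out, and for Iigp1 no fold is given. Of the 5 members counted, 3 rose less in mutant than in wild-type cells, and none rose more; 1.65% of all genes were called for this difference, 0.820% lower. The difference of the log2 rises, mutant minus wild-type, was -0.37 ± 0.06 for Irgm1, -0.48 ± 0.10 for Irgm2 and -0.83 ± 0.13 for Ifi47 (edgeR adjusted p = 1.4e-04, 0.00362 and 9.4e-05). Igtp did not pass, with 0.00 ± 0.09 (edgeR adjusted p = 1), a value whose sign changed with the settings. Higher levels with IFNg in the mutant line therefore stood beside a smaller fold rise for Irgm1, Irgm2 and Ifi47, whose vehicle levels were higher in that line. The vehicle level of Igtp was also higher there (0.71 ± 0.07), without a smaller rise. The difference uses the same vehicle libraries as the vehicle comparison above, so these values are not independent of it.

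**Figure D3:**
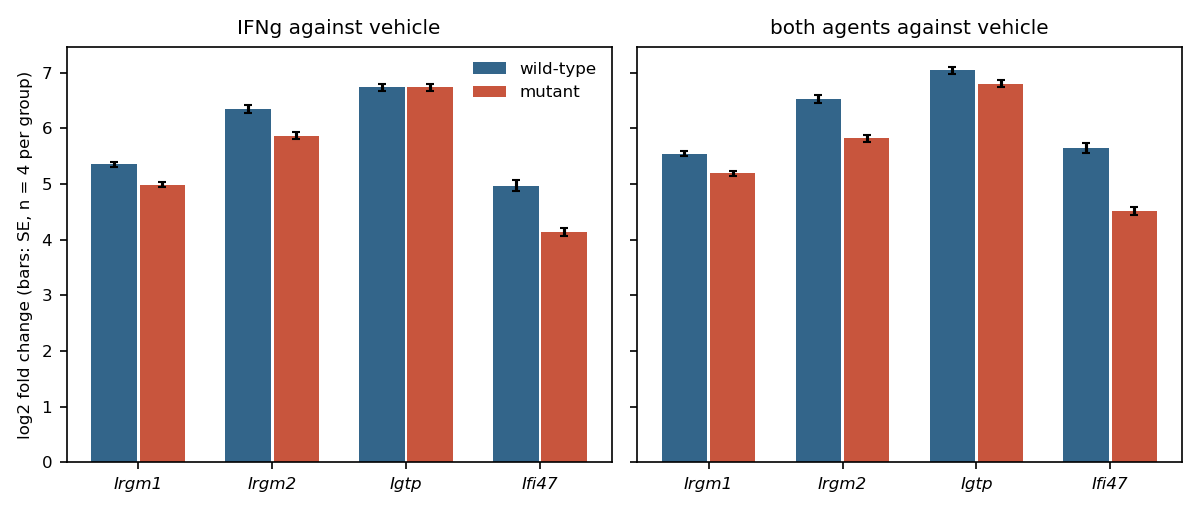
Log2 rise over vehicle (bars, with approximate SE from the edgeR fit, n = 4 libraries per group) of the 4 IRG genes with a countable vehicle level, for IFNg (left) and for both agents (right), wild-type in blue and mutant in red. The SE of rises this large can be smaller than counting error. With IFNg, Igtp has a rise of 6.73 in wild-type and 6.74 in mutant cells, while Ifi47 has 4.97 and 4.14.

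With Pam3CSK4 alone no single member was called higher in either line with all libraries in the fit. In wild-type cells 0 of 7 members were called at an adjusted p under 0.05 by edgeR against 22.0% of all genes, 1, Ifi47, had an unadjusted p under 0.05, and the same gene was called by DESeq2 (adjusted p = 0.041), lower with Pam3CSK4. Ifi47 read 1.48, 0.785, 1.09 and 1.02 CPM with Pam3CSK4 against 1.16, 1.58, 1.54 and 1.29 CPM with vehicle, a log2 value of -0.34 ± 0.14 (edgeR adjusted p = 0.0784), and libraries of both groups overlapped. Leaving out wild-type Pam3CSK4 replicate 1 or wild-type vehicle replicate 1 brought it under the threshold (edgeR adjusted p = 0.00599 to 0.0474). The regulators in wild-type cells had log2 values of -0.01 ± 0.05 (Irgm1), 0.06 ± 0.09 (Irgm2) and -0.08 ± 0.07 (Igtp). Tgtp1 and Tgtp2 together had 5 counts over the wild-type Pam3CSK4 group and 0 over vehicle, and their sum was called at the edge of the threshold (at least 1.54-fold; edgeR adjusted p = 0.0484).

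In mutant cells 2 regulators fell with Pam3CSK4, Irgm2 and Igtp, where 24.3% of all genes were called, 12.8% lower. Irgm2 read 2.99, 2.84, 2.62 and 3.14 CPM with Pam3CSK4 against 4.12, 4.02, 3.74 and 3.42 CPM with vehicle, a log2 fold change of -0.40 ± 0.08 (edgeR adjusted p = 1.4e-04). Igtp read 4.19, 4.87, 4.29 and 4.52 CPM against 5.65, 5.94, 5.61 and 4.91 CPM, a log2 fold change of -0.31 ± 0.07 (edgeR adjusted p = 5.1e-04). For both genes the Pam3CSK4 and vehicle libraries did not overlap, though the share of all genes without such overlap was not counted. Irgm1 (-0.09 ± 0.04, edgeR adjusted p = 0.14) and Ifi47 (0.05 ± 0.08, edgeR adjusted p = 0.716) did not pass. The Tgtp pair held 20, 8, 12 and 8 counts with Pam3CSK4 against 6, 8, 6 and 7 with vehicle. The summed level had a log2 fold change of 0.94 ± 0.30 (edgeR adjusted p = 0.0241), at these low counts and with overlapping libraries, while neither copy passed alone. Without mutant vehicle replicate 2, Tgtp2 was called higher (log2 fold change 1.27, edgeR adjusted p = 0.033).

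The lines differed in this response for Irgm2. Its difference, mutant minus wild-type, was -0.46 ± 0.12 (edgeR adjusted p = 0.00429), 1 of 5 members counted, where 26.6% of all genes were called. The call was lost with a fit of only the 4 groups compared (adjusted p = 0.051) and with the structural RNA share as a term (adjusted p = 0.0804). Ifi47, at 0.39 ± 0.16, did not pass in the main fit (edgeR adjusted p = 0.0701) and passed with DESeq2 (adjusted p = 0.034), with the structural RNA share as a term (0.0322), and without wild-type vehicle replicates 1 and 4 (0.0335). With Pam3CSK4 present, 5 members were higher in mutant cells than in wild-type cells, the same 5 genes as with vehicle, where 65.6% of all genes were called, 32.1% higher. The Tgtp sum, at 5 counts over the wild-type group, had a log2 fold change of 3.27 ± 0.43 (edgeR adjusted p = 1.3e-07), an SE too small for so few counts. Ifi47 had 2.88 ± 0.11 on the log2 scale (edgeR adjusted p = 3.5e-21), with 8.51, 8.52, 7.53 and 8.32 CPM in mutant libraries. Irgm1, Irgm2 and Igtp had 0.89, 0.59 and 0.49, and Tgtp2 had a ratio of 18.7 (95% counting interval 4.78 to 160.3).

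Pam3CSK4 added to IFNg raised the family further in wild-type cells, where all 7 members were higher with both agents than with IFNg alone. Only 6.81% of all genes were called in this comparison, 4.41% higher, and the members' median log2 fold change was 0.671 against -0.0063 over all genes. The effectors again had the larger values. Iigp1 rose from the IFNg level above to 199, 173, 161 and 196 CPM, a log2 fold change of 1.26 ± 0.09 (edgeR adjusted p = 4.4e-11). Tgtp1 reached 186, 159.7, 156 and 181 CPM (1.00 ± 0.08, edgeR adjusted p = 7.2e-09) and Tgtp2 305, 284, 272 and 301 CPM (0.68 ± 0.06, edgeR adjusted p = 1.7e-08), and their sum had 0.79 ± 0.06 (edgeR adjusted p = 2.0e-11). Ifi47 reached 72.1, 68, 66.2 and 75.8 CPM (0.67 ± 0.06, edgeR adjusted p = 4.6e-09). For all 4 effectors every library with both agents lay above every library with IFNg alone, though the share of all genes separated in this way was not counted.

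The regulators in wild-type cells moved little in size. Irgm1 reached 553, 535, 542 and 575 CPM (0.19 ± 0.04, edgeR adjusted p = 0.00112), and Igtp 436, 431, 442 and 463 CPM (0.30 ± 0.05, edgeR adjusted p = 2.6e-05). Irgm2 reached 169.8, 168, 164 and 178 CPM (0.17 ± 0.05, edgeR adjusted p = 0.0259). The libraries of each regulator did not overlap between the 2 treatments, and here too the share over all genes was not counted. The Irgm2 call rests on few libraries: it was lost without any 1 of 5 of the 8 libraries (wild-type both agents replicates 1 and 4, IFNg replicates 1, 2 and 3), with adjusted p of 0.0606 to 0.105.

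In mutant cells 5 of 7 members were higher with both agents than with IFNg, against 17.1% of all genes called, 9.33% higher. The members' median was 0.378. Tgtp1 rose to 703, 652, 618 and 709.5 CPM, a log2 fold change of 0.97 ± 0.08 (edgeR adjusted p = 2.7e-09), close to its value in wild-type cells. Tgtp2 rose to 879, 822, 784 and 910.3 CPM (0.46 ± 0.06, edgeR adjusted p = 3.6e-06), Iigp1 to 596, 510.2, 491 and 639.7 CPM (0.43 ± 0.09, edgeR adjusted p = 6.1e-04) and Ifi47 to 194, 178, 167 and 188 CPM (0.38 ± 0.06, edgeR adjusted p = 3.6e-05). The Tgtp sum had 0.67 ± 0.06 (edgeR adjusted p = 2.3e-10). Irgm1 rose to 859.9, 858, 820.4 and 853 CPM (0.21 ± 0.04, edgeR adjusted p = 1.5e-04). Irgm2 (221, 219.5, 209 and 213 CPM) and Igtp (637, 605, 595 and 620.0 CPM) did not pass, with log2 values of -0.05 ± 0.05 (edgeR adjusted p = 0.537) and 0.06 ± 0.05 (edgeR adjusted p = 0.417), and their libraries overlapped those with IFNg alone.

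Whether Pam3CSK4 added different amounts in the 2 lines was tested as a comparison chosen after these values were seen. Of the 7 members, 4 gained less in mutant than in wild-type cells, against 7.47% of all genes called, 3.44% lower. Iigp1 had the largest difference, -0.83 ± 0.12 on the log2 scale, mutant minus wild-type (edgeR adjusted p = 4.5e-05). Igtp (-0.24 ± 0.07), Irgm2 (-0.22 ± 0.07) and Ifi47 (-0.29 ± 0.09) had smaller ones (edgeR adjusted p = 0.0194, 0.0417 and 0.0426). Irgm1 (0.01 ± 0.05), Tgtp1 (-0.03 ± 0.12) and Tgtp2 (-0.22 ± 0.09) did not pass (edgeR adjusted p = 0.925, 0.93 and 0.157), nor did the Tgtp sum (-0.12 ± 0.08, edgeR adjusted p = 0.402). The Irgm2 and Ifi47 calls were each lost without any 1 of 10 of the 16 libraries (adjusted p of 0.0515 to 0.104 and 0.0532 to 0.115), and with the structural RNA share as a term (0.0719 and 0.0843). The Igtp call was lost without 1 library, wild-type both agents replicate 4 (0.0531). The Iigp1 call was kept in every alternative tried.

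**Figure D4:**
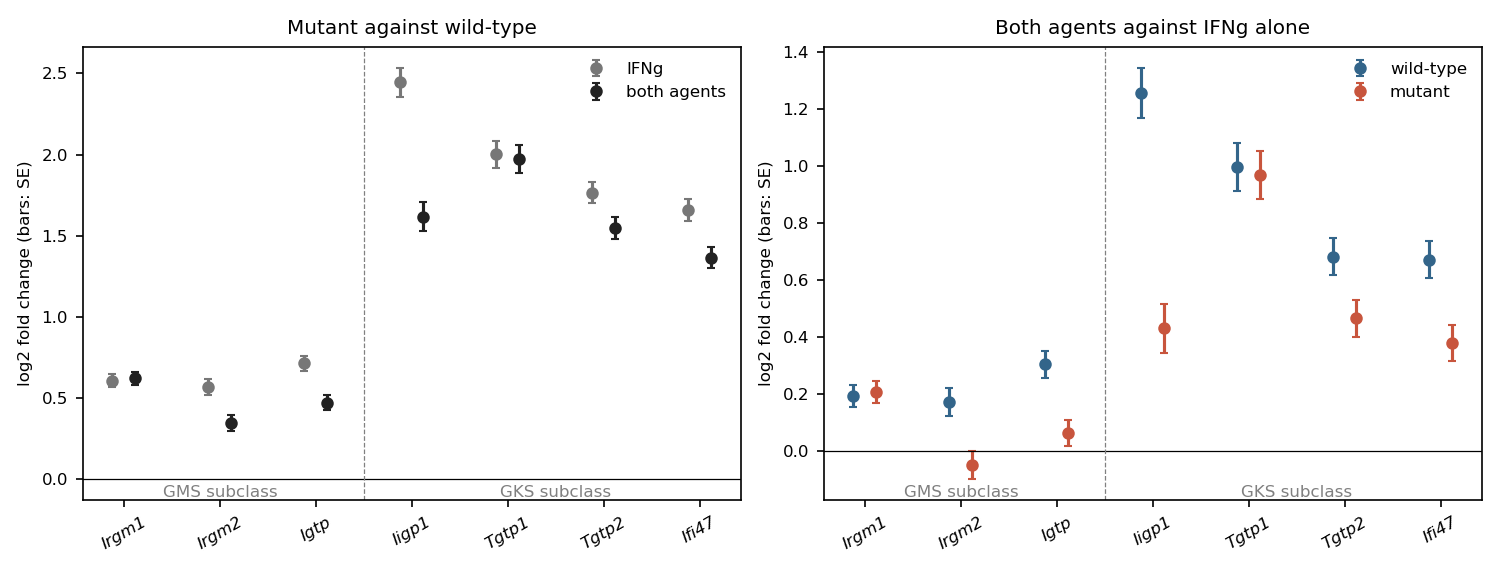
Log2 fold changes (points, with SE from the edgeR fit) of the 7 IRG genes, regulators left and effectors right of the dashed line, for mutant against wild-type with IFNg and with both agents, and for both agents against IFNg alone in each line. The effectors lie between 1.66 and 2.44 with IFNg, above the regulators at 0.57 to 0.71; Irgm2 and Igtp lie near 0 for the added Pam3CSK4 in mutant cells.

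With both agents, all 7 members were higher in mutant than in wild-type cells, where 60.2% of all genes were called, 30.5% higher; the members' median was 1.36 against 0.00664. The regulators had log2 fold changes of 0.62 ± 0.04 (Irgm1), 0.34 ± 0.05 (Irgm2) and 0.47 ± 0.05 (Igtp), with edgeR adjusted p of 4.8e-16, 2.1e-07 and 1.0e-10. The effectors had 1.62 ± 0.09 (Iigp1), 1.97 ± 0.09 (Tgtp1), 1.55 ± 0.07 (Tgtp2) and 1.36 ± 0.06 (Ifi47), with edgeR adjusted p of 5.1e-15, 4.5e-16, 1.6e-17 and 2.9e-18, and the Tgtp sum had 1.72 ± 0.06 (edgeR adjusted p = 7.9e-21). No member's libraries overlapped between the lines, though the share of all genes without such overlap was not counted.

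Against vehicle, both agents raised all 7 members in each line. Among all genes, 43.7% were called in wild-type cells (21.2% higher) and 43.8% in mutant cells (23.7% higher). Iigp1, Tgtp1 and Tgtp2 passed the low-count filter through the groups with IFNg, so their rise supports nothing by its count. The log2 rises in wild-type and mutant cells were 5.54 and 5.19 for Irgm1, 6.53 and 5.82 for Irgm2, 7.04 and 6.80 for Igtp, and 5.64 and 4.52 for Ifi47. Of the 5 members counted for the difference between lines, 4 rose less in mutant cells, against 15.8% of all genes called, 6.99% lower. Ifi47 had -1.13 ± 0.12, Irgm2 -0.71 ± 0.10 and Irgm1 -0.35 ± 0.06 (edgeR adjusted p = 7.7e-08, 2.2e-06 and 4.1e-05). Igtp had -0.24 ± 0.08 (edgeR adjusted p = 0.0457); this call was lost without any 1 of 12 of the 16 libraries (0.0527 to 0.114), and with the structural RNA share as a term (0.183). This comparison and the one for IFNg alone share their vehicle libraries.

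To compare levels between genes, the authors' TPM values, which scale transcripts to a fixed total after correcting for length, were used. In wild-type vehicle cells the order of mean TPM was Irgm1 (1.96 ± 0.423, mean ± SD, n = 4), Igtp (0.6 ± 0.114), Ifi47 (0.3 ± 0.0942) and Irgm2 (0.178 ± 0.0465), with Iigp1, Tgtp1 and Tgtp2 listed at 0. The ranges of Ifi47 and Irgm2 overlapped, though Ifi47 lay above Irgm2 within every library, and the other neighbours did not overlap. In mutant vehicle cells Ifi47 (1.62 ± 0.208) stood above Igtp (0.95 ± 0.02) and below Irgm1 (3.72 ± 0.257), with no overlap among the 4.

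With IFNg the wild-type order was Irgm1 (119 ± 13.5 TPM), Igtp (96.4 ± 14.1), the Tgtp sum (49.2 ± 7.82), Irgm2 (22.2 ± 3.13), Ifi47 (14.4 ± 2.44) and Iigp1 (13.7 ± 2.77); Irgm1 overlapped Igtp, and Ifi47 overlapped Iigp1. In mutant cells the Tgtp sum (140.1 ± 29.8) stood between Irgm1 (145 ± 31.2) and Igtp (126 ± 28.1), all 3 overlapping, and Iigp1 (58.6 ± 11.7) and Ifi47 (36.04 ± 7.87) stood above Irgm2 (26.2 ± 6.24), with Ifi47 and Irgm2 overlapping. With both agents the mutant order began with the Tgtp sum (199 ± 47.9), which overlapped Irgm1 (149.8 ± 35.9). Overlap here is of ranges over libraries. Within every mutant library with both agents the Tgtp sum lay above Irgm1. Within every IFNg library Irgm1 lay above Igtp, and in mutant cells the Tgtp sum lay above Igtp and Ifi47 above Irgm2. The order of the Tgtp sum and Irgm1 in mutant IFNg libraries, and of Ifi47 and Iigp1 in wild-type ones, differed between libraries. Structural RNA is part of the TPM total and differed between these libraries (18.8 to 27.8% of the counts with both agents); its part in the spread of TPM values was not tested.

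The make-up of the family shows the same shift within each library, where such totals cancel. The 4 effector genes made up 9.74 ± 1.28% of the family's TPM in wild-type vehicle cells (mean ± SD, n = 4), all of it Ifi47, and 24.5 ± 1.7% in mutant vehicle cells. With IFNg they made up 24.5 ± 1.23% in wild-type and 44.2 ± 1.11% in mutant cells. With both agents they made up 33.3 ± 1.3% and 51.8 ± 1.52%. The libraries of these 4 agonist groups did not overlap (23.5 to 26%, 31.8 to 34.9%, 43.3 to 45.8% and 50.3 to 53.6%). Transcripts of these 4 effector genes thus outnumbered those of the regulators only in mutant cells given both agents. Other IRG genes described below, such as the effector Gm12250, are not part of these shares. With Pam3CSK4 alone the share was 8.06 ± 1.99% in wild-type and 27.1 ± 1.74% in mutant cells. Irgm1 went from 64.6 ± 1.58% of the family in wild-type vehicle cells to 24.9 ± 0.905% in mutant cells with both agents, and the Tgtp pair from 0 to 33.1 ± 0.558%. The values are descriptions, with no test.

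**Figure D5:**
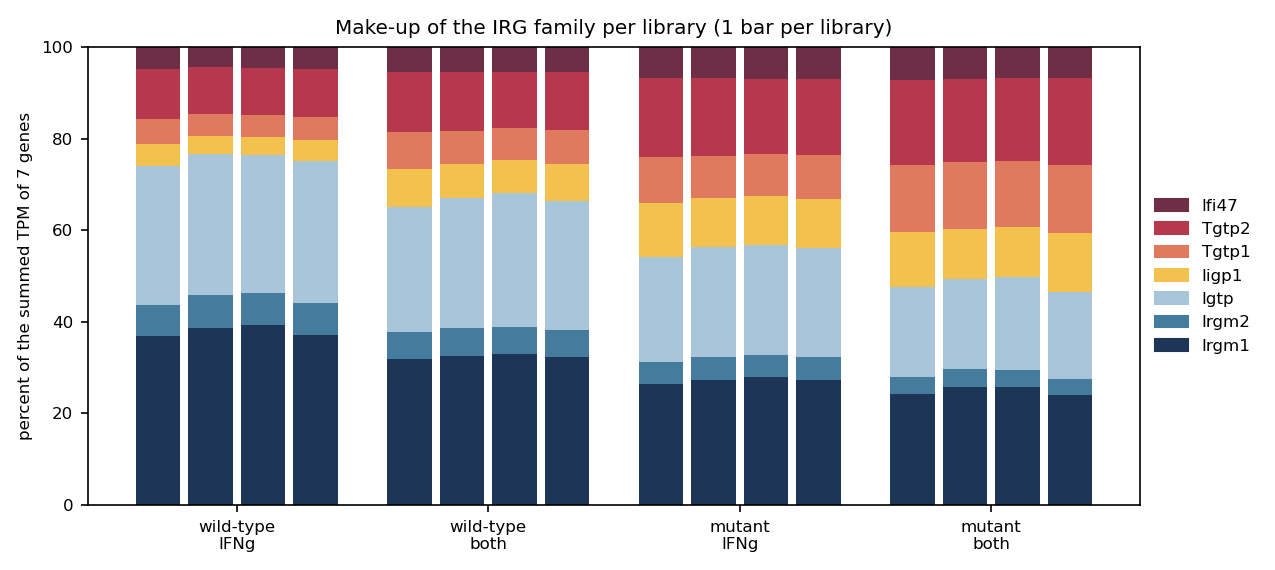
Percent of the summed TPM of the 7 IRG genes held by each gene, 1 bar per library, for the groups given IFNg or both agents. The GKS effectors together hold 23.5 to 26% in wild-type IFNg libraries and 50.3 to 53.6% in mutant libraries with both agents.

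The split between the Tgtp copies also moved between groups, as far as RSEM's division of shared reads can be taken. Tgtp1 held 32.1 ± 1.07% of the pair's counts with IFNg and 37 ± 0.926% with both agents in wild-type cells, and 35.8 ± 0.699% and 44.1 ± 0.263% in mutant cells (mean ± SD, n = 4). Library ranges were 30.9 to 33.1%, 36 to 37.9%, 34.8 to 36.3% and 43.8 to 44.4%. The Tgtp1 share was higher with both agents than with IFNg in each line without overlap. Mutant libraries with IFNg and wild-type libraries with both agents shared values.

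Other genes of the IRG family, or beside it, followed the same direction with IFNg. Of 11 listed genes 9 were tested; Gm12187 and Irgc1, at 0 to 14 counts per group, were not. In each line 8 of the 9 rose with IFNg, and the more distant relative Irgq fell (-0.39 ± 0.08 in wild-type and -0.58 ± 0.08 in mutant cells). Among all genes 35.4% were called in wild-type (17.8% higher) and 33.2% in mutant cells (18.3% higher). Of the 8 that rose, 5 (Gm4951, Gm4841, Gm5431, Gm12185 and F830016B08Rik) had 0 counts in wild-type vehicle libraries and 1 to 11 counts over the mutant vehicle group, and passed the filter on low counts through the groups with IFNg, so their rise supports nothing by its count. With IFNg 8 were higher in mutant than in wild-type cells, the 8 inducible ones, with a list median of 2.01: F830016B08Rik 2.72, Gm5431 2.25, 9930111J21Rik2 2.08, Gm4841 2.08, Gm12185 2.01, Gm4951 2.00, 9930111J21Rik1 1.96 and Gm12250 1.21, while Irgq was lower (-0.20 ± 0.08, edgeR adjusted p = 0.0367). In this comparison of the lines 53.1% of all genes were called, 25.7% higher. Gm12250, known as Irgb10, is an effector also linked to bacterial lysis. It read 55.9 ± 3.23 CPM in wild-type and 129.2 ± 1.51 CPM in mutant cells with IFNg. Gm5431 stayed under 1 CPM in each group, with 23 counts over the wild-type IFNg group and 105 over the mutant one. Several of these gene models are close copies of one another or overlap members, so single values are uncertain.

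Adding Pam3CSK4 to IFNg raised 6 of these 9 genes in wild-type cells (median 0.595), Gm4841 (1.40), F830016B08Rik (1.10), Gm4951 (0.89), Gm12185 (0.64), Gm12250 (0.60) and 9930111J21Rik2 (0.43). In mutant cells it raised 2, F830016B08Rik (0.37 ± 0.12, edgeR adjusted p = 0.038) and Gm12185 (0.17 ± 0.06, edgeR adjusted p = 0.0411), with a median of 0.148. In the comparison of the lines chosen after seeing the data, 5 of the 9 gained less in mutant cells: Gm4841 (-1.14), Gm4951 (-0.74), F830016B08Rik (-0.73), Gm12185 (-0.47) and Gm12250 (-0.46). Shares of all genes called were 6.81% (4.41% higher) in wild-type, 17.1% (9.33% higher) in mutant cells and 7.47% (3.44% lower) for the difference.

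Guanylate-binding proteins, the other large family of interferon-inducible GTPases, which act beside IRG proteins at the vacuole, moved in a like direction. The list also held Gvin1, which does not carry the Gbp name and counts toward the totals and medians here. Of 12 listed genes 11 were tested, and all 11 were higher in mutant than in wild-type cells with IFNg (median 2.43; Gbp4 2.99, Gbp5 2.75 and Gbp9 2.43 among those above 1 CPM). In this comparison 53.1% of all genes were called, 25.7% higher. Gbp8, Gbp10 and Gbp11 had 1, 6 and 6 counts over the wild-type IFNg group and 33, 114 and 119 over the mutant one. They passed the low-count filter through groups where they were high, so they support nothing by their count. Adding Pam3CSK4 to IFNg raised 9 in wild-type cells (median 1.49) and 7 in mutant cells (median 0.51). There 6.81% and 17.1% of all genes were called, 4.41% and 9.33% higher. Gbp5 rose by 4.03 and 3.82 on the log2 scale, Gbp2 by 1.81 and 1.58, and Gbp3 by 1.49 and 1.52. In mutant cells 4 of the 11 did not pass. Their list median of 0.51 stood beside 0.378 for the 7 IRG members, of which 2 did not pass.

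Among 10 genes of the IFNg receptor and its JAK-STAT pathway, 6 were higher and 2 lower in mutant than in wild-type cells with vehicle, and 2 did not pass, where 53.7% of all genes were called, 24.4% higher. Higher were Irf8 (1.28), Irf1 (0.99), Socs3 (0.95), Irf9 (0.47), and the receptor chains Ifngr1 (0.22) and Ifngr2 (0.17). Lower were the kinase gene Jak2 (-0.91) and Stat2 (-0.32). Jak1 (-0.03) and Socs1 (0.35) did not pass. The receptor chains and transcription factors of the pathway thus did not move in 1 direction.

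With IFNg, 7 of the 10 rose in wild-type cells and 6 in mutant cells, and Ifngr1 and Ifngr2 fell in both, where 35.4% and 33.2% of all genes were called (17.8% and 18.3% higher). The rise was smaller in mutant cells for Irf8 (-0.62 ± 0.07), Irf9 (-0.55 ± 0.08) and Irf1 (-0.51 ± 0.06), with edgeR adjusted p of 2.7e-07, 5.3e-05 and 4.3e-07, and the fall of Ifngr1 was deeper (-0.25 ± 0.06, edgeR adjusted p = 0.0161). The rise was larger in mutant cells for Stat2 (0.52 ± 0.08, edgeR adjusted p = 1.3e-04). Irf1, which encodes a factor that binds the ISRE, read 11.33, 353.4, 22.51 and 492.8 CPM in wild-type vehicle, wild-type IFNg, mutant vehicle and mutant IFNg cells (group means).

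Genes whose level over the 8 groups was most like that of the family were ranked by Pearson's r between the group means of log2(CPM + 0.1) and the members' mean profile, over 9688 genes that reached 5 CPM in some group. The 8 highest were Irf1 (0.9986), Stat3 (0.9985), Trim21 (0.9979), Rnf114 (0.9977), Gm12185 (0.9968), Parp12 (0.9968), Zbp1 (0.9967) and Cish (0.9959). Among the members themselves, r ran from 0.9335 (Iigp1 and Ifi47) to 0.9993 (Irgm2 and Igtp). Over 8 points that fall into groups with and without IFNg, such values are high for any gene that IFNg raises, and they are given as a description.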

How the data were processed

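RNA was sequenced from 32 libraries of 2 cell lines by 4 treatments, 4 libraries in each of 8 groups taken from the sample titles. Per the labels' protocols, libraries were made from total RNA with a stranded kit and ribosomal RNA reduction. Per the submitters' processing notes, the authors used STAR 2.5.2b and RSEM 1.3.0 with the mouse build mm10. Per the file headers, the authors' tables give an expected count per gene, in which RSEM divides reads shared by several genes, and the same counts as TPM, which divides by effective length and scales over all genes. The annotation release and the use of strand are not stated in the labels or headers. Of 55487 identifiers 55394 matched GENCODE vM21 with versions ignored. Of the non-zero expected counts 11.07% were not whole, and all were rounded.

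Genes with low counts were removed by filterByExpr on the 8 groups (40618 removed, 14869 tested). Libraries were scaled by TMM, and CPM values are after this scaling. An edgeR quasi-likelihood fit of all 32 libraries gave each group its own mean, with robust dispersions (24 residual degrees of freedom, common biological coefficient of variation 7.22%). P-values were adjusted by Benjamini-Hochberg over all genes tested within each comparison, and an adjusted p under 0.05 is a call. There were 15 planned comparisons, and 1 more was chosen after the data were seen, the genotype difference of both agents against IFNg. Standard errors were taken from the fold change and its F statistic, so they are approximate. For large folds and for low counts, as with the Tgtp sum, they can fall below counting error and overstate precision. Overlap of libraries between groups was looked at for the members only, and its share over all genes was not counted. The script was tested on simulated data. Where a group had 0 counts, its fold was computed against 3 counts over the group's libraries. The counts of the other group were taken as exact, so the fold is a lower bound only where those are many. Where a group had 1 to 3 counts, an exact 95% interval is given. Both cover counting error only.

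Motif shares were counted over RefSeq promoters outside chromosome 18. The members and gene lists were chosen with earlier results of these data known. The rule for named genes takes all 7 members, Gata2, every tested gene of the other IRG and JAK-STAT lists (1 gene of the latter is not reported here), the 3 greatest rises and the 3 greatest falls at 1 CPM or more in the guanylate-binding and conjugation lists, and the 8 genes most alike in pattern. Alternatives were RLE size factors, no filter, DESeq2, only the groups compared, a replicate block, each library left out, wild-type vehicle replicates 1 and 4 left out (their structural RNA share was the highest of that group), the structural RNA share as a covariate, and the Tgtp copies summed. Tools were R 4.3.3, edgeR 4.0.16, limma 3.58.1, DESeq2 1.42.0, data.table (1.17.8), Python 3.11.15, pandas 2.3.3, numpy 2.4.6, scipy 1.17.1, matplotlib 3.10.9 and biopython 1.88.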

Additional observations from a re-analysis of the deposited data

Results flagged for a closer look

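Among 63 sets of 4 libraries, 1 had a library far from the others by Dixon's criterion, where chance gives about 1 in 20: Irgm1 with IFNg in wild-type replicate 3, at 494.1 CPM against 477.4 to 480.2 CPM in the other libraries.

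In 12 cases the response of a member differed between mutant and wild-type cells by the test of the difference itself (edgeR, adjusted p as given with the results; log2, mutant minus wild-type). For IFNg against vehicle these were Irgm1 (-0.3669), Irgm2 (-0.4845) and Ifi47 (-0.8334). For Pam3CSK4 against vehicle it was Irgm2 (-0.4626). For both agents against vehicle they were Irgm1 (-0.3532), Irgm2 (-0.7075), Igtp (-0.2386) and Ifi47 (-1.127). For both agents against IFNg, the comparison chosen after the data were seen, they were Irgm2 (-0.2231), Igtp (-0.2416), Iigp1 (-0.8264) and Ifi47 (-0.2931). All 12 were lower in mutant cells. Of all genes tested, 1.65% (0.820% lower), 26.6% (12.3%), 15.8% (6.99%) and 7.47% (3.44%) were called for these differences, in the order above. Comparisons against vehicle share their vehicle libraries. The difference for both agents against vehicle is by its make-up the sum of those for IFNg against vehicle and both agents against IFNg. The 12 cases are therefore not separate results.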

How the results depend on the processing

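Member fold changes were followed only where counts allowed a fitted ratio. Over the settings other than leaving out 1 library, 583 of 605 of them kept their direction and their side of the threshold, 9 lost the call, 6 gained it and 7, all close to 0 and not called, changed sign. Leaving out 1 library gave 771 of 832, 38, 8 and 15. Where the cause of a change is not shown by the setting itself, it was not tested. Members called for mutant against wild-type ranged from 5 to 6 with a library left out, both with vehicle and with Pam3CSK4. Members called for Pam3CSK4 in wild-type cells went from 0 to 1 with DESeq2 (Ifi47) and with the Tgtp copies summed, and 0 to 1 with a library left out. For the genotype difference of the Pam3CSK4 response they went from 1 to 2 with DESeq2 and without wild-type vehicle replicates 1 and 4, to 0 with only the groups compared, and 1 to 2 with a library left out. For the difference of both agents against IFNg they went from 4 to 2 with structural RNA as a covariate, and 1 to 4 with a library left out. Among all genes, the structural RNA share as a covariate moved the calls in wild-type cells from 5265 to 2794 (IFNg), 3277 to 176 (Pam3CSK4) and 6491 to 3638 (both agents), and in the genotype differences from 3956 to 1213 (Pam3CSK4) and 2347 to 1380 (both agents). Wild-type Pam3CSK4 calls were 2057 with only the groups compared, 648 without vehicle replicates 1 and 4, and 2048 (without vehicle replicate 4) to 4099 with a library left out; the Pam3CSK4 difference without replicates 1 and 4 had 2444. The IFNg difference had 245, against 400 with DESeq2, 127 with only the groups compared and 136 (without mutant IFNg replicate 1) to 382 (without wild-type vehicle replicate 2) with a library left out. Both agents against IFNg in wild-type cells had 1012, and 577 (without IFNg replicate 2) to 1179 with a library left out.

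Signs that changed were of log2 values near 0. Irgm1 with Pam3CSK4 in wild-type cells was 0.0034 with no filter and -0.0377 to 0.0411 with a library left out; Irgm2 was -0.0286 with the structural RNA covariate and -0.0201 to 0.1956 with a library left out. The IFNg difference of Igtp was -0.0018 with DESeq2, -0.0039 with RLE size factors, -0.0038 with no filter, -0.0075 without wild-type vehicle replicates 1 and 4, and -0.0507 to 0.0363 with a library left out. For both agents against IFNg, the difference of Irgm1 was -0.0168 to 0.0343 with a library left out, and that of Tgtp1 was 0.0069 with the covariate and -0.0765 to 0.0159 with a library left out. In that comparison Tgtp2 was called with DESeq2 (adjusted p = 0.0269) and with only the groups compared (0.0405), and Ifi47 was not called with no filter (0.0981). Without wild-type vehicle replicates 1 and 4 the Igtp difference for both agents was not called (0.0877).

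Replicate numbers recur across groups, but libraries with the same number did not deviate together (median correlation 0.00874 over 112 pairs, 5 over 0.1), so the numbers do not pair the libraries. With a replicate block the Igtp difference for both agents was -0.2378 (adjusted p = 0.0533) and the Irgm2 difference for both agents against IFNg was -0.2229 (adjusted p = 0.0558), both no longer called. Among member fold changes with enough counts to be fitted, no other call changed with the block. Depth limits Iigp1, Tgtp1 and Tgtp2 in groups without IFNg, where 0 to 15.33 counts per library leave the size of their rise uncertain.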

Other observations

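Regulatory IRG proteins are known to work together with the machinery that conjugates LC3-like proteins to membranes, which also guides effectors to vacuoles. Of 12 genes of that machinery, all tested, IFNg raised 1 in wild-type cells, Atg16l1 (0.38 ± 0.04, edgeR adjusted p = 2.7e-09), and lowered 2, Map1lc3b (-0.14) and the cargo receptor gene Sqstm1 (-0.13). In mutant cells Atg16l1 (0.40 ± 0.04, edgeR adjusted p = 6.5e-10) and Atg3 (0.13) rose and 4 genes fell, Map1lc3b (-0.21), Sqstm1 (-0.17) and Atg12 (-0.14) by the most. These 3 and 6 calls of 12 stood against 35.4% and 33.2% of all genes called. With IFNg 6 of the 12 were lower in mutant than in wild-type cells and the other 6 did not pass, a share near the 53.1% of all genes called (edgeR; list median -0.117, against 0.000343 over all genes), with the largest values for Map1lc3b (-0.48 ± 0.04, edgeR adjusted p = 1.7e-13), Gabarapl2 (-0.32 ± 0.04, edgeR adjusted p = 1.8e-07) and Atg7 (-0.20 ± 0.05, edgeR adjusted p = 5.6e-04). The list did not keep this direction with the other agonist treatments: 7 were higher and 3 lower in mutant cells with Pam3CSK4 (median 0.107; 65.6% of all genes called), and 5 higher and 4 lower with both agents (median 0.0331; 60.2%). With vehicle 4 were lower and the other 8 did not pass (median -0.0665; 53.7%).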
